A study of Rattus norvegicus with 12 samples.

Results

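Cytosolic heat shock chaperones and Hmox1 were examined here as 9 named rat genes: Hsp90aa1, Hsp90ab1, Hspa8, Hsph1, Hspb1, Hspd1, Dnaja1, Dnajb1 and Hmox1. A probe set, the group of short oligonucleotides on the array that reads 1 transcript, was taken as a member where the platform annotation gave it exactly 1 gene symbol and that symbol was one of the 9. Of 31099 probe sets on the array, 11 were members, and they covered 7 of the 9 genes. Hsp90ab1, Hsph1, Dnaja1 and Dnajb1 had 2 probe sets each, and Hspb1, Hspd1 and Hmox1 had 1 each. Hsp90aa1 (2 probe sets) and Hspa8 (1 probe set) were listed only together with other symbols, so their levels were not assigned. All 11 member probe sets passed the filter on dim signals, which kept 18625 probe sets. The name of the group is loose for 2 genes, since the Hspd1 product works in mitochondria and the Hmox1 product is an enzyme anchored in the endoplasmic reticulum membrane.

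The study asked which transcripts respond within 40 min to gonadotropin-releasing hormone (GnRH), the hypothalamic peptide that drives the gonadotropes, the pituitary cells that secrete luteinizing hormone (LH) and follicle-stimulating hormone. It used 12 arrays, 6 from cells given 10 nM GnRH and 6 from cells given an equal volume of vehicle medium. The cells came from adult female Sprague-Dawley rats that had been ovariectomized for 2 weeks, with 13 to 15 anterior pituitaries pooled for each experiment. They were dispersed with trypsin, enriched for large cells by sedimentation at unit gravity (about 6% of the recovered cells), and held in a medium with estradiol and charcoal-treated serum until treatment on culture day 3. Cells positive for LH made up 40 to 60% of the enriched pool, against under 7% of unfractionated cells, so other pituitary cells made up much of both groups. Neither group held freshly isolated cells: dispersion, culture, estradiol and ovariectomy were shared by all 12 samples. The labels name 3 enrichment sets, and each set gave 2 GnRH and 2 vehicle arrays: replicates 1 and 2 of each agent were set I, 3 and 4 set II, and 5 and 6 set III. The samples are called biological replicates in the labels, but nothing says that the wells of a set came from separate animals, so p-values measure only the spread between these samples. In bulk RNA of this kind, fewer cells of a type and less RNA per cell cannot be told apart.

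Molecular chaperones bind unfolded or partly folded proteins and help them reach or regain their native shape. HSP90 proteins, among them the product of Hsp90ab1, hold signalling proteins such as kinases and steroid hormone receptors in a form that can be activated. The HSP70 proteins, among them the product of Hspa8, bind short exposed stretches of a protein chain; J-domain proteins such as those of Dnaja1 and Dnajb1 deliver these clients and start ATP hydrolysis, and the HSP110 protein of Hsph1 acts as a nucleotide exchange factor. The small heat shock protein of Hspb1 holds unfolding proteins without ATP, and the mitochondrial chaperonin of Hspd1 folds imported proteins in a closed chamber. Hmox1 encodes haem oxygenase 1, which cleaves haem to biliverdin, carbon monoxide and iron and is induced by oxidants through the factor NRF2. Heat, oxidants and damaged proteins release the factor HSF1, which binds heat shock elements in the promoters of many of these chaperone genes, and for that reason the genes are commonly read as signs of stress in cultured cells.

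Promoter sequences are given first, to show which members carry the element that HSF1 reads. RefSeq promoter windows on the rat build GRCr8, 250 bases before to 50 after an annotated transcript start, were available for 7 of the 9 genes; Hsp90aa1 and Hmox1 are named only. The heat shock element was searched as a pair of facing units, GAANNTTC or TTCNNGAA, on both strands, and as 3 such units in a row. A pair in either order lay in 15.9% of 33469 windows (8.59% for GAANNTTC and 8.77% for TTCNNGAA, and a window can hold both) and in 6 of the 7 member windows. The row of 3 units lay in 0.798% of all windows and in 4 of the 7, those of Dnaja1, Hspa8, Hspd1 and Hsph1. Hspb1 and Dnajb1 had pairs only, and the Hsp90ab1 window had neither form. The matched units are in capitals in the first 6 sequences, each read 5′ to 3′ on the strand of its gene: Dnaja1 at chr5:60638405-60638433 (plus strand, just after the annotated start), Hsph1 at chr12:10427317-10427359 (plus), Hspd1 at chr9:64084247-64084287 (minus), Hspb1 at chr12:26432408-26432445 and chr12:26432388-26432425 (minus, overlapping), and Dnajb1 at chr19:41431142-41431167 (minus). The Hspd1 stretch lies inside the annotated gene, whose outer end is at 64084332.
Dnaja1: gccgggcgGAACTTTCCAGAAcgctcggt
Hsph1: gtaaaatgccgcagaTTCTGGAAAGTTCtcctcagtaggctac
Hspd1: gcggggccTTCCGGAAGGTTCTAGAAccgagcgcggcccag
Hspb1, farther pair: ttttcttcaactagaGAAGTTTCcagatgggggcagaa
Hspb1, nearer pair: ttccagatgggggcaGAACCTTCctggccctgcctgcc
Dnajb1: gcatcgggaggggcgGAAGGTTCtgg
The 250 bases before the annotated transcript start used for Hsp90ab1, chr9:22930173-22930422 on the plus strand, are shown whole because this gene had the largest differences between enrichment sets among the members. The capitals mark its match to the AP-1 site TGANTCA, which lay in 7.33% of all windows and in 1 of the 7 member windows. The annotated gene begins at 22930249, so much of this stretch, with the marked site, lies inside the gene, and bases farther upstream were not searched.
Hsp90ab1: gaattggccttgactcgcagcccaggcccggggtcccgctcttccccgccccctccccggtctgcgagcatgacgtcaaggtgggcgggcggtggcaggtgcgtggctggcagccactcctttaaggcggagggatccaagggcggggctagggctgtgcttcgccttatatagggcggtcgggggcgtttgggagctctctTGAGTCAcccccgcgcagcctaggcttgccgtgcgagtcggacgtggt
The antioxidant element TGACNNNGC lay in 12.1% of all windows and in 1 of the 7, that of Dnajb1. CCAAT lay in 37.5% of all windows and in 4 of the 7, and TATAAA in 14.2% of all windows and in none of the 7. These matches are letters in a window of fixed length, and they say nothing of whether a factor was bound.

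All signals below are linear probe set intensities, scaled so that the trimmed mean of an array is 500, and differences are of log2(signal + 16), which understates the change of dim probe sets. The enriched cells carried the labelled cell type's markers: Lhb and Cga, which encode subunits of the gonadotropins, and Fshb, Gnrhr, Nr5a1 and Foxl2 all had signals, and none of these 6 genes had a median below the background controls. On single arrays 2 of them did fall below: Gnrhr on vehicle 3, vehicle 4, vehicle 6, GnRH 3 and GnRH 5, and Nr5a1 on GnRH 4 (26.2 against 59.0). Fosb, an immediate early gene, was the only probe set of 18625 to pass the test for GnRH (0.00537%), with a difference of 2.29 ± 0.32 (SE, 6 against 6 arrays), a 4.90-fold higher signal, a limma adjusted p of 0.0411 and a higher signal in GnRH in 36 of 36 pairs of arrays. Leaving out vehicle 3 kept that call (2.01, adjusted p = 0.00358), and leaving out any of the other 11 arrays ended it. The arrays differed in ways apart from the agent. The bacterial transcripts added at hybridisation, 18 probe sets, had mean signals from 2264 to 11705 on 5 arrays, the 4 of set I and vehicle 5, and from 53482 to 320024 on the other 7. The mean signal of 27 bacterial background controls was 14.8 to 22.4 on the same 5 arrays and 52.8 to 183 on the others. Vehicle 3 had the highest value of both, and its rank correlations with the remaining arrays had a median of 0.336, where every other array had one of 0.618 to 0.686. In hybridisation signal both GnRH arrays lay above both vehicle arrays in enrichment set III and below them in set II. A permutation test found no difference between agents in either group of controls, which does not show that they were balanced. The hybridisation signal differed by 0.96 on the log2 scale (exact permutation test within sets, two-sided p = 0.5), and the background controls by 0.09 (exact permutation p = 0.861). The smallest p this test can give is 0.00926.

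The level of the members was compared between enrichment sets first. Between sets, the 2 probe sets of Hsp90ab1 and 1 of the 2 probe sets of Dnaja1 differed, and the Hsp90ab1 probe sets did so in opposite directions. The moderated F test of limma over the 3 sets called 3 of the 11 member probe sets (27.3%) at an adjusted p under 0.05, and the same test called 6.02% of all probe sets tested. At an unadjusted p under 0.05 it reached 6 of the 11, against 27.8% of all probe sets. Members ran in both directions: 8 of 11 were lower in set II than in set I and 6 of 11 were lower in set III than in set I. The share of all probe sets lower in these comparisons was not counted. The 11 probe sets come from 7 genes, so they are not separate observations. The median difference over the members was -0.84 for set II minus set I, against -0.03 over all probe sets tested, and -0.30 for set III minus set I, against 0.03 over all.

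**Figure D1:**
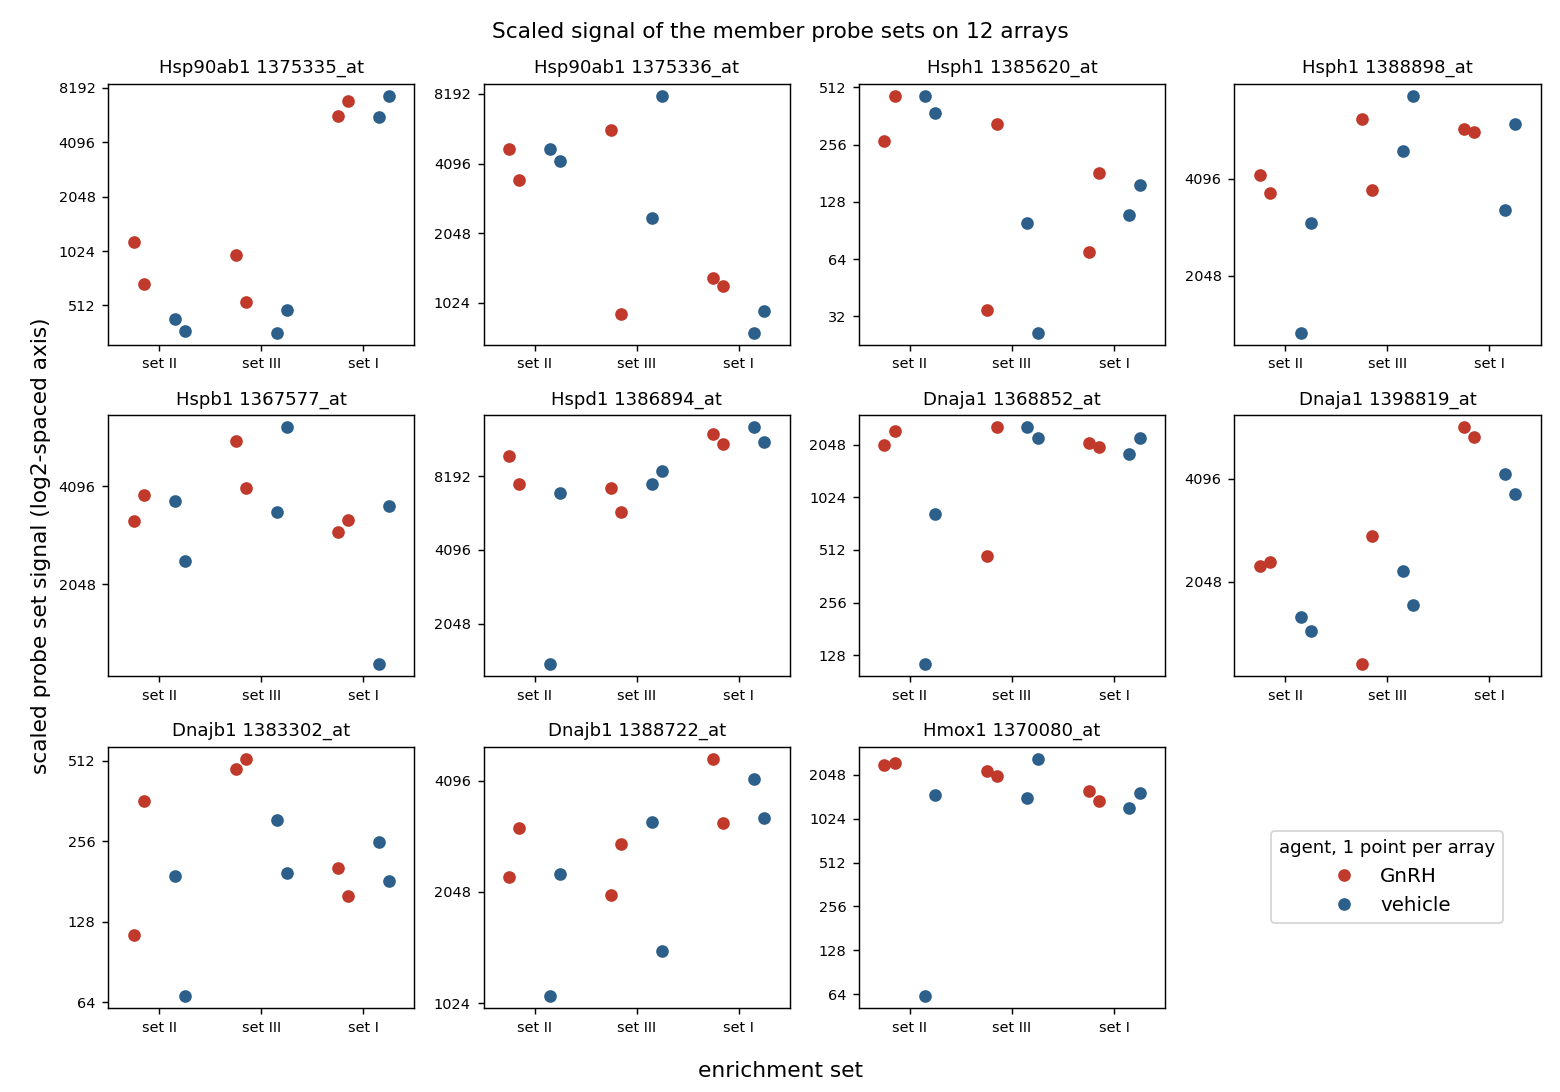
Scaled signal (log2-spaced vertical axes, a separate range in each panel) of the 11 member probe sets by enrichment set, with 1 point per array, GnRH in red and vehicle in blue. The first Hsp90ab1 panel shows 4 set I arrays between 5616 and 7424 and the other 8 between 360 and 1155, and the Hmox1 panel shows a single low array, vehicle 3, at 62.3.

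Hsp90ab1 encodes the constitutive form of cytosolic HSP90. Its probe set 1375335_at had signals of 1155, 670, 428 and 371 in set II, of 979, 534, 360 and 482 in set III, and of 5708, 6940, 5616 and 7424 in set I (in each set the 2 GnRH arrays first). The 4 set I arrays stood above all 8 others without overlap. The differences were -3.39 ± 0.35 for set II minus set I and -3.50 ± 0.35 for set III minus set I (SE, 4 arrays a set), so the signal was 10.5-fold higher in set I than in set II and 11.3-fold higher in set I than in set III. Its unadjusted p of 1.53e-08 was the smallest of the 18625 probe sets in this test (limma adjusted p = 0.000286).

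The other Hsp90ab1 probe set, 1375336_at, ran the opposite way, with signals of 4741, 3479, 4732 and 4196 in set II, of 5699, 912, 2380 and 8064 in set III, and of 1306, 1206, 757 and 946 in set I. Set II lay wholly above set I, while in set III the GnRH 6 array, at 912, fell inside the set I range. The differences were 2.03 ± 0.50 for set II minus set I and 1.60 ± 0.50 for set III minus set I, a 4.08-fold and a 3.04-fold higher signal (limma adjusted p = 0.0436). This call was close to the threshold: leaving out vehicle 1, 2 or 4, or GnRH 1, 2, 3 or 4, ended it, with adjusted p-values from 0.00926 to 0.158 over the 12 fits with 1 array left out, and with the hybridisation control level as a covariate the differences were 1.88 and 1.52 with an adjusted p of 0.442. A pseudocount of 1 also ended it (adjusted p = 0.0517). Within each array the log2 ratio of 1375335_at to 1375336_at ran from -3.50 to -2.04 in set II, from -4.06 to -0.77 in set III and from 2.13 to 2.97 in set I. The plot of both probe sets shows this as a set I cluster apart from the other 8 arrays.

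**Figure D2:**
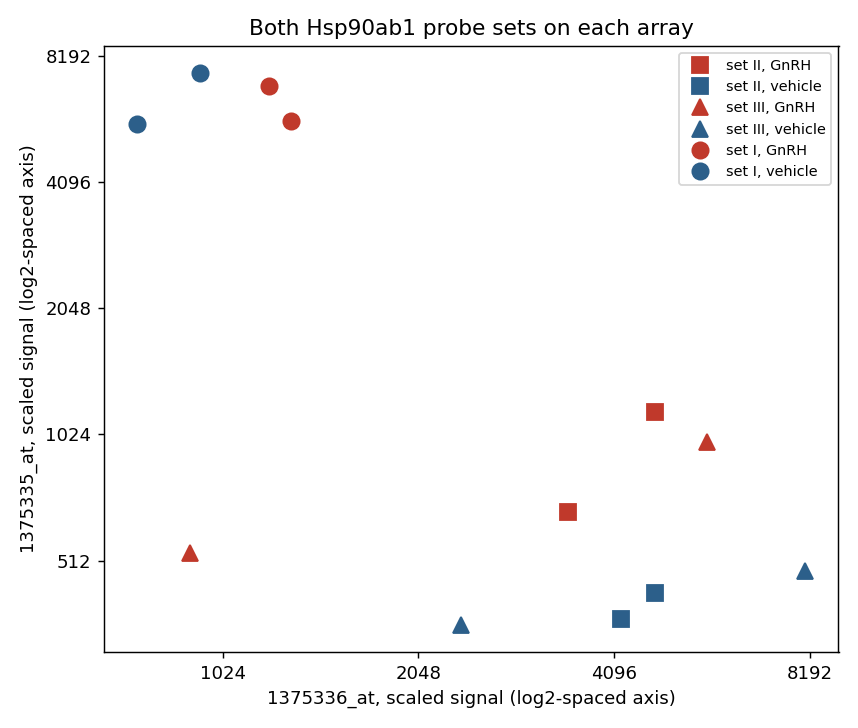
Scaled signal of Hsp90ab1 probe set 1375335_at (vertical, log2-spaced) against 1375336_at (horizontal, log2-spaced) on each of the 12 arrays, with shapes for enrichment sets and colours for agents. The 4 set I arrays lie at the upper left, and the GnRH 6 array of set III, at 912 and 534, lies at the lower left, apart from the other 7 arrays.

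Of 2339 genes with at least 2 tested probe sets, 33 had at least 2 of them called between sets, and in 2 of those 33, Hsp90ab1 and Dnajc1, the called probe sets differed in opposite directions (Dnajc1, which encodes a J-domain protein of the endoplasmic reticulum, was named after its values were seen). Which stretch of the Hsp90ab1 transcript each probe set reads is not given in the sources used here, and a share of signal from near-identical HSP90 transcripts or pseudogenes in either probe set was not tested. Set and array measures moved together. Set I had the low hybridisation control signals given above. The log2 ratio of the 3′ to the 5′ Gapdh controls, a measure of how far amplified RNA is shortened, was 2.96 to 4.37 in set II, 3.60 to 4.27 in set III and 4.48 to 5.45 in set I. The same ratio of the Actb controls overlapped between sets, at 2.45 to 4.16 in set II, 3.36 to 4.90 in set III and 4.16 to 4.82 in set I. The part of these measures in the set differences was not tested, apart from a fit with the hybridisation signal as a covariate, in which 1375335_at kept its call (-3.51 and -3.56 for sets II and III minus set I, adjusted p = 0.00427) as the only member to do so. Outside set I only vehicle 5, of set III, had a low hybridisation signal (2264, the lowest of all). This fit could therefore not well tell set I apart from a low hybridisation signal. On vehicle 5 the signal of 1375335_at was 360.

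Dnaja1 encodes a J-domain partner of HSP70. Its probe set 1398819_at had signals of 2283, 2343, 1619 and 1473 in set II, of 1175, 2791, 2210 and 1756 in set III, and of 5800, 5423, 4230 and 3701 in set I, where all 4 arrays stood above the other 8. The differences were -1.31 ± 0.31 for both set II and set III minus set I, a 2.48-fold higher signal in set I in each case (limma adjusted p = 0.0257). This call was lost when vehicle 1, vehicle 2, GnRH 1 or GnRH 2, the 4 set I arrays, was left out (adjusted p from 0.0102 to 0.114 over the 12 such fits), with quantile normalization (0.0867) and with the hybridisation covariate (0.330, with differences of -0.95 and -1.10). The gene's other probe set, 1368852_at, differed by -1.24 ± 0.72 for set II minus set I and by -0.30 ± 0.72 for set III minus set I, and was not called (adjusted p = 0.412).

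The other 8 member probe sets were not called between sets, which does not show that their levels were the same. For Hsph1, the HSP110 gene, 1385620_at had signals of 269, 459, 465 and 376 in set II, of 34.6, 331, 100 and 26.2 in set III, and of 70.0, 181, 109 and 156 in set I (adjusted p = 0.125). Its other probe set, 1388898_at, differed by -0.84 ± 0.36 for set II minus set I and by 0.10 ± 0.36 for set III minus set I (adjusted p = 0.151), so the 2 Hsph1 probe sets also ran in opposite directions between sets II and I, without passing the test. Hspd1, the mitochondrial chaperonin gene, had 9933, 7587, 1398 and 6984 in set II, 7301, 5827, 7636 and 8557 in set III, and 12153, 11052, 12987 and 11330 in set I. All 8 arrays of sets II and III lay below the 4 of set I, the differences were -1.18 ± 0.46 and -0.71 ± 0.46, and the adjusted p of 0.196 did not pass.

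Dnajb1, whose product is a J-domain protein that HSF1 induces and that feeds back on it, showed no called difference with either probe set. For 1388722_at the differences were -0.88 ± 0.35 for set II and -0.74 ± 0.35 for set III, each minus set I (adjusted p = 0.170). For 1383302_at they were -0.32 ± 0.58 and 0.79 ± 0.58 (adjusted p = 0.360). The small heat shock protein gene Hspb1 had 3213, 3839, 3684 and 2409 in set II, 5652, 4031, 3408 and 6220 in set III, and 2966, 3225, 1163 and 3564 in set I, with overlap between all 3 sets. Its differences, 0.36 ± 0.35 and 0.90 ± 0.35, were positive in both comparisons with set I and did not pass (adjusted p = 0.206). Hmox1 had 2407, 2483, 62.3 and 1492 in set II, 2186, 2021, 1417 and 2648 in set III, and 1590, 1347, 1206 and 1546 in set I (adjusted p = 0.487), so apart from 1 array its signal lay between 1206 and 2648 in all sets.

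**Figure D3:**
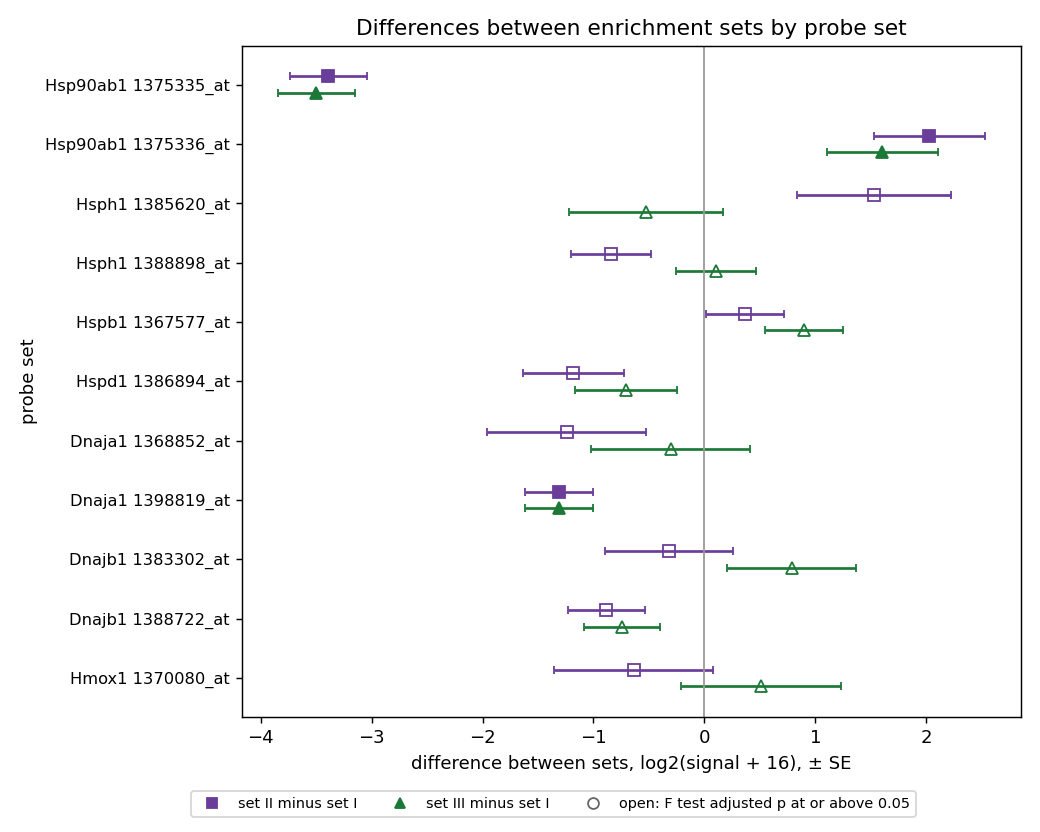
Difference between enrichment sets in log2(signal + 16) for the 11 member probe sets, as set II minus set I (squares) and set III minus set I (triangles), each with its SE from 4 against 4 arrays. Filled symbols mark the 3 probe sets with a limma F test adjusted p under 0.05: both Hsp90ab1 probe sets, on opposite sides of 0, and Dnaja1 1398819_at.

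Marker lists of the cell types in the pool were summed on each array and set beside the chaperones. The summed signal of 6 gonadotrope markers was 250475 to 473414 in set II, 32142 to 494334 in set III and 64561 to 99800 in set I. Single markers of that list ran in different directions: Cga was 2.38 and Lhb 1.83 for set II minus set I, Foxl2 and Nr5a1 were 0.09 and 0.08, and Gnrhr was -1.77, none of them called by limma (adjusted p = 0.129 or more). In set II Gnrhr lay below the background controls on vehicle 3, vehicle 4 and GnRH 3. The sum of 4 somatotrope and lactotrope markers was 547174 to 1169600 in set II, 36261 to 658111 in set III and 74305 to 118472 in set I. The sum of 10 leukocyte markers, 2 of which had a median below the background controls, was 2591 to 3991 in set II, 2112 to 2799 in set III and 1659 to 2044 in set I. The sum of 3 corticotrope and melanotrope markers was 943 to 2303 in set II, 1018 to 1506 in set III and 1913 to 2884 in set I. For fibroblasts and pericytes (6 markers) the ranges overlapped, at 7369 to 12229 in set II, 6751 to 16554 in set III and 7958 to 10188 in set I, and so did those of 5 folliculostellate and stem cell markers, at 5335 to 10636, 6617 to 12995 and 8093 to 11935 in the same order. Between sets limma called 1 of 3 corticotrope and melanotrope markers, lower in sets II and III, and 1 of 5 tested fibroblast and pericyte markers, higher in sets II and III, and none of the gonadotrope, somatotrope and lactotrope, leukocyte or folliculostellate markers. The sum of 3 thyrotrope markers was 4003 to 9459 in set II, 12434 to 24826 in set III and 9574 to 24234 in set I. For endothelial cells (4 markers) the ranges were 476 to 2192, 907 to 1920 and 881 to 1324 in the same order. For erythrocytes (3 markers) they were 591 to 1332, 361 to 1162 and 275 to 551. None of the tested markers of these last lists was called between sets. No marker with a probe set was listed at 0. The part of cell makeup in the set differences of the chaperones was not tested.

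Other genes of the same pathways were described from lists of pathway genes, with each gene read by 1 probe set. Of 38 tested heat shock and co-chaperone genes, 3 were called between sets (7.89%), against 734 of 10680 genes (6.87%). Ppid, which encodes the HSP90 co-chaperone cyclophilin 40, was lower in both sets than in set I, by -2.00 ± 0.46 in set II and -2.17 ± 0.46 in set III (limma adjusted p = 0.0190). Hsf2, which encodes a second heat shock factor, was also lower, by -1.90 ± 0.42 and -1.02 ± 0.42 (adjusted p = 0.0351). For Hsf2, vehicle 5 of set III had 1933, inside the set I range of 1630 to 2674, while the remaining set III arrays had 500 to 1440. Cryab, a small heat shock protein gene like Hspb1, was higher, by 1.04 ± 0.32 and 1.60 ± 0.32 (adjusted p = 0.0220), with signals of 6977 to 8034 in set II, 6147 to 15087 in set III and 2744 to 4254 in set I. Of 8 subunits of the cytosolic chaperonin, 1 was called (12.5%), Cct6a at -1.12 ± 0.27 and -0.87 ± 0.27 (adjusted p = 0.0411), while Cct8 and Tcp1 were not (adjusted p = 0.178 and 0.199).

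Of 21 tested genes of haem breakdown and the NRF2-linked antioxidant response, 1 was called between sets (4.76%). It was Mt2A, a gene for the metal-binding protein metallothionein, at 1.93 ± 0.32 and 1.71 ± 0.32 (adjusted p = 0.00611), with 5086 to 8551 in set II, 3505 to 7895 in set III and 1441 to 2292 in set I. Gclc, for a subunit of the rate-limiting enzyme of glutathione synthesis, and Gstp1, a glutathione transferase gene, were not called (adjusted p = 0.0719 and 0.0924). Of 16 endoplasmic reticulum chaperone genes, 3 were called (18.8%). Hspa5, the HSP70 gene of that compartment, was lower (-0.90 ± 0.31 and -1.34 ± 0.31, adjusted p = 0.0413), and so was Dnajb9, a J-domain gene (-2.86 ± 0.65 and -2.62 ± 0.65, adjusted p = 0.0257). Hyou1, an HSP110-related gene, was higher (0.89 ± 0.33 and 1.69 ± 0.33, adjusted p = 0.0221). For Dnajb9, vehicle 5 of set III had 10527, inside the set I range of 8865 to 20608 and unlike the other 3 arrays of set III at 985 to 2322. The median difference for set II minus set I was -0.32 for the heat shock list, -0.52 for the chaperonin, -0.03 for the antioxidant list and -0.40 for the endoplasmic reticulum list, against -0.12 over all genes. For set III minus set I the medians were 0.13, -0.30, 0.10 and -0.18 in that order, against 0.02 over all genes.

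GnRH was compared with vehicle next, with the enrichment set as a term of the model. No member probe set passed: limma called 0 of 11 at an adjusted p under 0.05, and 1 of 11, Hsp90ab1 1375335_at, had an unadjusted p under 0.05, as did 3.45% of all probe sets tested. The criterion given in the study's design was a ratio of at least 1.50 and at least 50% of the pairwise comparisons at that ratio. The ratio was taken here between geometric group means, on the same offset log scale as the differences. A ratio of plain mean signals was not used and could give other outcomes. Upward, the criterion was met by Hsp90ab1 1375335_at alone (1 of 11, 9.09%, against 7.62% of all). Downward, it was met by no member (against 7.6% of all). The sign of the difference was positive for 10 of the 11 members, against 53.6% of all probe sets, and the median difference was 0.34 against 0.04. Without vehicle 3 the sign was positive for 8 of 11, against 47.4% of all probe sets, and the medians were 0.26 over the members and -0.02 over all. Vehicle 3 was the lowest of the 12 arrays for 5 of the 11 members and for 25.4% of all probe sets. Within sets, 9 of 11 were higher in set II, 6 in set III and 7 in set I, and 3 of 11 (27.3%), Hspb1, Dnajb1 1388722_at and Hmox1, were higher in each set, against 12.6% of all probe sets. The median differences of the members were 0.76 in set II, 0.05 in set III and 0.07 in set I, against 0.15, -0.05 and 0.01 over all. The share of all probe sets higher within a single set was not counted. Since the 11 probe sets come from 7 genes, they are not 11 separate observations.

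Hsp90ab1 1375335_at had signals of 534, 1067 and 6940 (lowest, median and highest) on the 6 GnRH arrays, against 360, 455 and 7424 on the 6 vehicle arrays. The agents overlapped over all arrays, and the span of each came from the sets described above. Within set II the GnRH arrays, at 1155 and 670, stood above the vehicle arrays at 428 and 371, and within set III, at 979 and 534, above 360 and 482, while within set I, at 5708 and 6940, they lay among the vehicle values of 5616 and 7424. The difference was 0.62 ± 0.28 (1.53-fold, 95% interval 1.01 to 2.32; unadjusted p = 0.0453, limma adjusted p = 0.981), made up of 1.11 in set II, 0.77 in set III and -0.04 in set I. The gene's other probe set, 1375336_at, was the 1 member with a negative difference, at -0.17 ± 0.41 (0.889-fold, interval 0.488 to 1.62; adjusted p = 0.993). Its signals were 912, 2392 and 5699 with GnRH, against 757, 3288 and 8064 with vehicle, and its difference was positive without vehicle 6 or without GnRH 6. The 2 probe sets of Hsp90ab1 thus gave no common direction for GnRH.

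**Figure D4:**
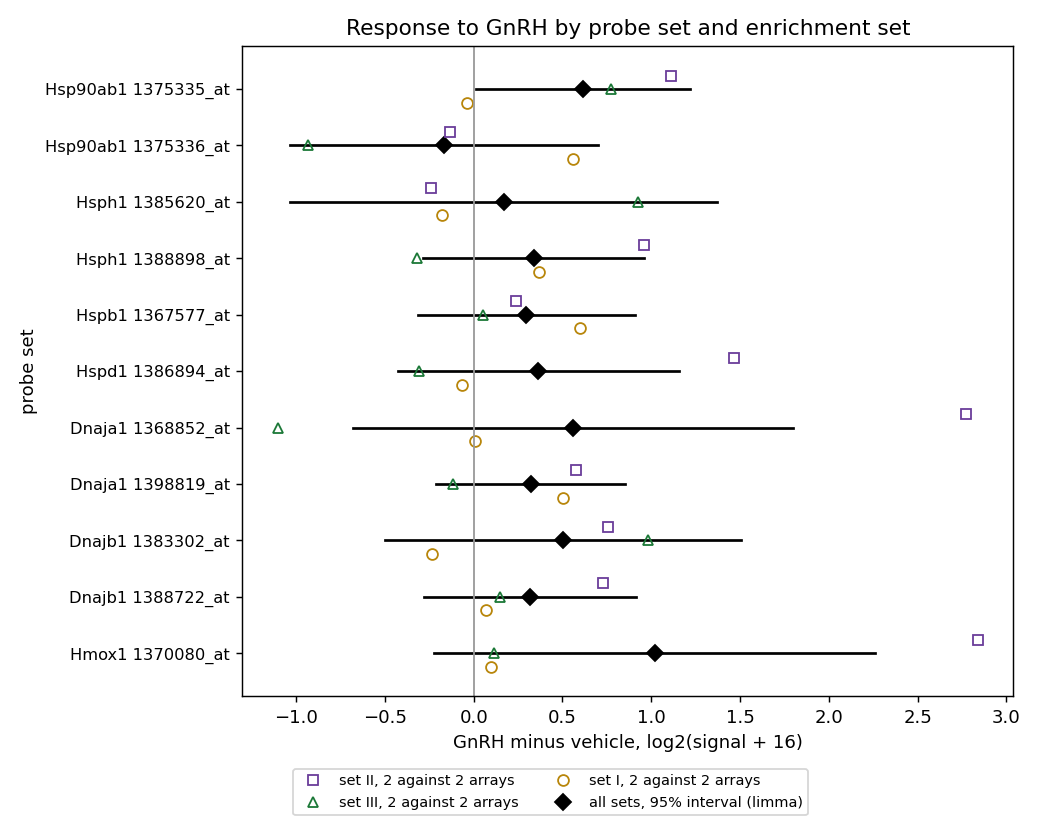
Difference between GnRH and vehicle in log2(signal + 16) for the 11 member probe sets. Diamonds and bars are the limma estimate over 12 arrays and its 95% interval, and open symbols are the differences within each enrichment set; 10 of 11 diamonds lie right of 0, the interval of Hsp90ab1 1375335_at alone lies right of 0 before adjustment, and the set II values of Hmox1 and Dnaja1 1368852_at (2.84 and 2.77) lie far from the other sets.

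Hmox1 had the largest GnRH difference of the members, at 1.02 ± 0.59 (2.03-fold, 95% interval 0.858 to 4.79; unadjusted p = 0.101, limma adjusted p = 0.981). Its signals were 1347, 2103 and 2483 on the GnRH arrays (lowest, median and highest), against 62.3, 1454 and 2648 on the vehicle arrays. The low value was vehicle 3 alone, where Hmox1 lay below that array's mean background control signal of 183. The set differences were 2.84 in set II, 0.12 in set III and 0.10 in set I, and without vehicle 3 the overall difference was 0.26. Although the ratio of geometric group means was above 1.50, Hmox1 missed the study's criterion because only 47.2% of the array pairs reached that ratio.

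**Figure D5:**
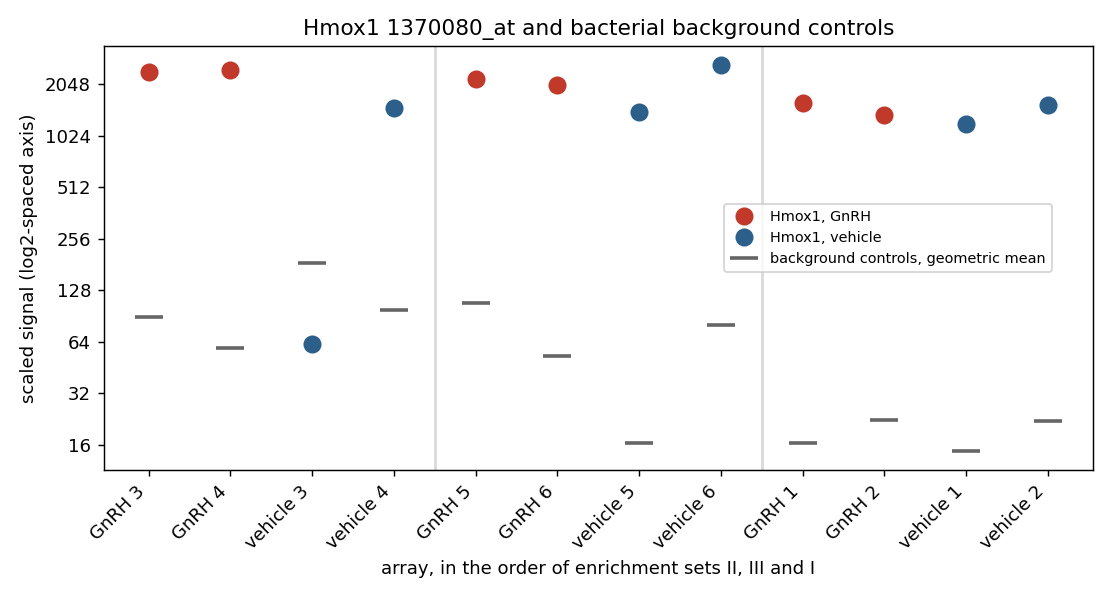
Scaled signal of Hmox1 (points, log2-spaced axis) on each array, in the order of sets II, III and I with GnRH before vehicle in each set, and the geometric mean of 27 bacterial background controls on the same array (grey dashes). On 11 arrays Hmox1 lies between 1206 and 2648, well above the dashes, and on vehicle 3 it lies at 62.3, under the dash at 183.

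The J-domain genes had no difference that passed the test. Dnaja1 1368852_at had signals of 472, 2063 and 2575 on the GnRH arrays, against 113, 2025 and 2580 on the vehicle arrays, and its difference of 0.56 ± 0.59 (adjusted p = 0.981) was 2.77 in set II, -1.10 in set III and 0.01 in set I. GnRH 5 was low among the GnRH arrays, at 472, and vehicle 3 and vehicle 4 among the vehicle arrays, at 113 and 823. Vehicle 3 lay below that array's background controls, and without it the difference was -0.06. It was the only member of 11 below 0.05, before adjustment, in the limma test of a set by agent interaction (limma adjusted p = 0.834), against 5.36% of all probe sets. At the adjusted threshold limma called an interaction in 0% of the probe sets tested. Dnaja1 1398819_at had 1175, 2567 and 5800 with GnRH, against 1473, 1983 and 4230 with vehicle, and a difference of 0.32 ± 0.25 (adjusted p = 0.981), positive in sets I and II (0.50 and 0.58) and -0.12 in set III.

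Dnajb1 1388722_at had 2008, 2901 and 4697 on the GnRH arrays, against 1072, 2730 and 4131 on the vehicle arrays, a difference of 0.32 ± 0.28. Without vehicle 3, the array at 1072, that difference was 0.13. Dnajb1 1383302_at, a dim probe set, had 114, 283 and 522, against 67.7, 193 and 309, a difference of 0.50 ± 0.47. Both overlapped between agents and had an adjusted p of 0.981. For the second, 52.8% of the array pairs reached a ratio of 1.50 but the ratio of geometric group means was 1.42, under the study's criterion. That outcome depends on the use of geometric means and could differ with plain mean signals.

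The folding and holding chaperones were likewise not called. Hspb1 had 2966, 3532 and 5652 on the GnRH arrays, against 1163, 3486 and 6220 on the vehicle arrays, with a difference of 0.30 ± 0.29, made up of 0.24 in set II, 0.05 in set III and 0.60 in set I; without vehicle 1, the array at 1163, it was 0.057. Hspd1 had 5827, 8760 and 12153 with GnRH, against 1398, 8096 and 12987 with vehicle, and its difference of 0.36 ± 0.37 became -0.06 without vehicle 3, the array at 1398. Hsph1 1388898_at had 3709, 4949 and 6278 with GnRH, against 1361, 4135 and 7417 with vehicle, with a difference of 0.34 ± 0.29. Without vehicle 3, the array at 1361, that difference was 0.12. In all 3 the agents overlapped, the lowest array was a vehicle array, and the adjusted p was 0.981. Hsph1 1385620_at, which fell below the background controls on GnRH 5 and vehicle 6, had 34.6, 225 and 459 with GnRH, against 26.2, 133 and 465 with vehicle, and a difference of 0.17 ± 0.57 (adjusted p = 0.999).

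The pathway lists held no gene that limma called for GnRH at an adjusted p under 0.05, and 3 of 38 heat shock and co-chaperone genes, 0 of 8 chaperonin genes, 1 of 21 antioxidant genes and 0 of 16 endoplasmic reticulum chaperone genes had an unadjusted p under 0.05, against 351 of 10680 genes. The genes with a higher signal in GnRH were 27 of 38, 6 of 8, 14 of 21 and 10 of 16 in that order, against 54.6% of all genes, with median differences of 0.12, 0.25, 0.06 and 0.19 against 0.04. In the heat shock list the smallest p-values belonged to Hspb2, a small heat shock protein gene of muscle (1.11 ± 0.47), and to the J-domain genes Dnajb6 (0.55 ± 0.24) and Dnajb4 (0.70 ± 0.32), all with an adjusted p of 0.981. The Hspb2 difference was 1.84 in set II, 1.51 in set III and -0.02 in set I. On vehicle 3 and vehicle 4, the vehicle arrays of set II, Hspb2 lay below the background controls (159 against 183, and 48.7 against 97.5). In the chaperonin list the smallest p-values were those of Cct2 (0.49 ± 0.32), Cct6a (0.33 ± 0.22) and Tcp1 (0.45 ± 0.34), and among endoplasmic reticulum chaperones Creld2 (0.55 ± 0.27), Manf (0.51 ± 0.29) and Canx (0.59 ± 0.39). Vehicle 3 was the lowest of the 12 arrays for Dnajb6, Dnajb4, Cct2, Cct6a, Tcp1, Creld2 and Canx, but not for Manf. The Cct2 difference was 1.34 in set II, -0.36 in set III and 0.48 in set I. That of Tcp1 was 1.54, -0.60 and 0.39 in that order, and that of Canx 1.70, -0.04 and 0.10. For Cct6a, Creld2, Manf, Dnajb6 and Dnajb4 the difference was positive in each set. The list counts and medians were not taken without vehicle 3.

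Srxn1, which encodes sulfiredoxin, an enzyme that restores oxidized peroxiredoxins, had the smallest p of the antioxidant list (unadjusted p = 0.00878, adjusted p = 0.981). Its signals were 1535, 979, 1396, 2492, 1772 and 1905 on GnRH arrays 3, 4, 5, 6, 1 and 2, against 63.8, 887, 795, 1116, 646 and 1248 on the vehicle arrays of the same numbers. Its difference was 1.40 ± 0.47, with 2.21 in set II, 0.97 in set III and 1.02 in set I, and within each set both GnRH arrays lay above both vehicle arrays. On vehicle 3 its signal lay below the mean background control signal of 183, and without that array the difference was 0.86 (limma adjusted p = 0.985). A second Srxn1 probe set, 1384331_at, which the rule for named genes did not pick, differed by 0.19 ± 0.55, and by 0.57 without vehicle 3, and was not called. In the same list Gclc differed by -0.53 ± 0.33 and Txn1, for thioredoxin, by 0.47 ± 0.31, neither of them called. The summed gonadotrope markers were 71098 to 494334 on GnRH arrays and 32142 to 473414 on vehicle arrays, and the summed leukocyte markers 1693 to 2839 on GnRH arrays and 1659 to 3991 on vehicle arrays; their part in the differences between agents was not tested.

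The members did not all follow one another over the arrays. With each gene read by its tested probe set of highest mean signal, Pearson correlations of log2 values over the 12 arrays ran from -0.82 for Hsp90ab1 (1375336_at) with Dnaja1 to 0.82 for Hspd1 with Hmox1. Dnaja1 and Dnajb1 correlated at 0.76, and Hsp90ab1 with Dnajb1 at -0.77. All values for Hsp90ab1 here are those of 1375336_at, the probe set that was lower in set I. Its other probe set, 1375335_at, ran the opposite way between sets, and its correlations were not taken. The signs for Hsp90ab1 therefore hold for 1 probe set and not for the gene. Over the same arrays the most similar other genes were Clu (0.96), Ucp2 (0.96) and Ndufs3 (0.95) for Hsp90ab1, Cul3, Ubl3 and Pgrmc1 (each 0.95) for Dnaja1, and Syt4 (0.97), Pias1 and Atp7a (each 0.95) for Dnajb1. For Hmox1 they were Krtcap3, Psme3ip1 and Mad2l1bp (each 0.98), for Hspd1 they were Nefm, Eml4 (each 0.98) and Copg2 (0.97), for Hsph1 they were Cr1l (0.93), Atosa and Mybpc1 (each 0.92), and for Hspb1 they were Fkbp8, Foxp4 (each 0.89) and Rcn3 (0.88). These correlations are descriptions over arrays that share preparations and a scaling, and they contain the set differences and the low vehicle 3 array.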

How the data were processed

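RNA from enriched rat gonadotropes was amplified by 2 rounds of T7 transcription and hybridised to 12 Affymetrix arrays of the rat 230 design, per the labels. The deposited values are linear signal intensities from GCOS, per the submitters' processing notes, which give no version; array files of set I were lost, per the labels, so the intensity of each probe set was the starting point. The arrays' number limits the precision.

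Arrays were scaled to a common trimmed mean of 500 (2% off each end) over 31042 probe sets other than the 57 controls, and log2(signal + 16) was taken. Probe sets under the 40th percentile of mean log2 were left out. limma 3.58.1 in R 4.3.3 fitted enrichment set and agent on 18625 probe sets, with an intensity trend and Benjamini-Hochberg adjustment over all of them at 0.05; F tests covered the sets and the set by agent interaction. The steps were tested on simulated data. For array-level values, agents were permuted within sets (exact, two-sided). Gene names came from the platform annotation: 20826 probe sets had 1 symbol, 436 several and 9780 none, and those with several were not named. Named genes were all members, the 3 smallest p-values of each pathway list for agent and for set, gonadotrope markers, Fosb, and the 3 genes most like each member; a gene outside this rule is said to be so. The members, lists and tests were chosen with earlier results of these data known. Alternatives changed the pseudocount, filter, scaling, model terms, weights and arrays included.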

Additional observations from a re-analysis of the deposited data

Results flagged for a closer look

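Single arrays that stood apart from the others of their agent (6 arrays) or set (4 arrays) by Dixon's test at the 95% level were found 13 times in 119 such tests. Chance alone gives about 1 in 20 of separate tests. These tests were not separate, since member values were tested both by agent and by set. An excess over chance can therefore not be read from the count. For the members, vehicle 3 was low for Hmox1 (62.3, among vehicle arrays and also within set II) and for Hspd1 (1398), and its median Spearman correlation with the other arrays, 0.336, was low as well. GnRH 5 was low for Dnaja1 1368852_at, at 472, among GnRH arrays and also within set III. Vehicle 4 was low for Dnajb1 1383302_at, at 67.7. Within set I, vehicle 1 was low for Hsph1 1388898_at, at 3287, and for Hspb1, at 1163. Among the other named genes, Cct2 was low on GnRH 6 (1071), Creld2 was high on GnRH 5 (5477), Hspb2 was low on vehicle 4 (48.7), and Srxn1 was low on vehicle 3 (63.8). The cause of these values was not tested.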

How the results depend on the processing

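No member probe set was called for GnRH under any alternative that used limma, and 1 met the study's criterion, as 2834 of all probe sets did in either direction. The count of members higher in GnRH was 6 in set III alone and between 8 and 10 with 1 array left out. The 1 call over all probe sets was absent (0) with a pseudocount of 1, the filter at the 60th percentile, quantile normalization, no set term, no intensity trend or any set alone, 2 with array weights, and 0 to 1 with 1 array left out. Same-numbered samples were not taken as pairs: their deviations from the agent means correlated at 0.65, 0.52, 0.15, 0.16, -0.22 and 0.10 for numbers 1 to 6, which includes the shared set, and 1 of the 6 was negative. Their deviations from the means of their set and agent correlated at -0.03, -0.03 and -0.14 in sets I, II and III. With the replicate block 0 members and 0 probe sets were called, with 10 members higher in GnRH.

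GnRH differences of members, none of them called, changed sign for Hsp90ab1 1375336_at (0.23 with array weights, 0.56 in set I alone), Hsp90ab1 1375335_at (-0.037 in set I), Dnajb1 1383302_at (-0.23 in set I), Hsph1 1385620_at (-0.18 in set I, -0.24 in set II), Hspd1 (-0.066 in set I, -0.31 in set III, and -0.050 with both vehicle 3 and vehicle 5 left out, an alternative chosen after seeing the data), Dnaja1 1368852_at (-1.10 in set III), Hsph1 1388898_at (-0.32 in set III) and Dnaja1 1398819_at (-0.12 in set III). With 1 array left out the ranges that crossed 0 were -0.40 to 0.25 for Hsp90ab1 1375336_at, -0.27 to 0.42 for Hsph1 1385620_at, -0.056 to 1.07 for Dnaja1 1368852_at and -0.062 to 0.51 for Hspd1.

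Members called between sets numbered 2 with a pseudocount of 1, which ended the call of Hsp90ab1 1375336_at (adjusted p = 0.0517), 1 with no intensity trend, with the hybridisation covariate and with GnRH arrays only, 0 with vehicle arrays only, and 1 to 4 with 1 array left out. The 1 that kept its call without the trend, with the covariate and with GnRH arrays only was Hsp90ab1 1375335_at (adjusted p = 0.00275, 0.00427 and 0.0133), which lost it with vehicle arrays only (0.362). All probe sets called between sets, 1122 in the reported fit, numbered 627 with quantile normalization, 503 with no intensity trend, 4529 with array weights, 26 with the covariate, 0 with vehicle arrays only, 517 with GnRH arrays only, 3806 with both vehicle 3 and vehicle 5 left out, and 127 to 2332 with 1 array left out. Fits on 1 agent used 6 arrays; the cause of the other changes was not tested. Signals near the background controls limit Dnajb1 1383302_at and Hsph1 1385620_at.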
